A study of Mus musculus with 7 samples.

Results

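The genes described are 34 interferon-stimulated genes of the mouse outside the families of guanylate-binding proteins and immunity-related GTPases. They were chosen by symbol, and all 34 were found among the 54532 genes of the deposited table. Their products include Mx1 and Mx2, which are themselves GTPases of the dynamin family, so the set leaves out the 2 GTPase families and not every GTPase. RNA was sequenced in 7 libraries, each labelled as follicular helper T (Tfh) cells sorted from mouse spleen after sensitisation with intraperitoneal ovalbumin (OVA). Of these, 4 had the genotype Mst1 knockout (Mst1∆CD4 in the titles), and 3 were wild type (WT). Sensitisation was common to both groups. Such a form of writing usually stands for a deletion in Cd4-expressing cells and their descendants. Neither the Cre line nor strain, age and sex was stated in the labels. Titles call the replicates biological, and no label says whether each library came from 1 animal.

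Interferons are cytokines that put cells into an antiviral state. Type I interferons bind the receptor pair IFNAR1 and IFNAR2, and the kinases JAK1 and TYK2 on it then activate a transcription factor complex that holds STAT2 and IRF9. This complex binds an interferon-stimulated response element in the promoters of genes such as Isg15, Ifit1 and Mx1. Interferon gamma has its own receptor and induces an overlapping set. Lymphocytes and myeloid cells of the spleen all carry type I interferon receptors, and plasmacytoid dendritic cells are known as strong producers of the ligands.

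The response element is visible in the promoters of some of these genes. Sequences cover the 250 bases upstream of the annotated start (RefSeq, GRCm38.p6), 5′ to 3′ on the gene's strand. Shown are the 2 genes that rose in the knockout libraries (Ifi44 and Ifi44l), the gene that fell (Ddx58), and 3 classical targets whose levels varied widely between libraries (Isg15, Ifit1 and Ifit3). Capitals mark matches to the core of the element, GAAANNGAAA on either strand, and overlapping matches run together.
Ifi44, chr3:151749911-151750160, minus strand: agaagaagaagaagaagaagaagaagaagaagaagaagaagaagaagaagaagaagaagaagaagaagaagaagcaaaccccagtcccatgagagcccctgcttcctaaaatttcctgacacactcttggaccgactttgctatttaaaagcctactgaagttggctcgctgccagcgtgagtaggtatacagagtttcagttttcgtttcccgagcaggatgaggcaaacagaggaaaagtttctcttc
Ifi44l, chr3:151762892-151763141, minus strand: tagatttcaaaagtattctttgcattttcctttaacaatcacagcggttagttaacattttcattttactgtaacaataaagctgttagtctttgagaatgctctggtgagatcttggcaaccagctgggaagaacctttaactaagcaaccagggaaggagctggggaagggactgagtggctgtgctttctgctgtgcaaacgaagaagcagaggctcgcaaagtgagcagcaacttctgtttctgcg
Ddx58, chr4:40239826-40240075, minus strand: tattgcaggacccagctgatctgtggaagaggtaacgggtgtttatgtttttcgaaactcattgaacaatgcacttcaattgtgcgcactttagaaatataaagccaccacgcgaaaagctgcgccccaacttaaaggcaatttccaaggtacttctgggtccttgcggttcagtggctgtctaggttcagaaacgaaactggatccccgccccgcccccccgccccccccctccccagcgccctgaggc
Isg15, chr4:156200819-156201068, minus strand: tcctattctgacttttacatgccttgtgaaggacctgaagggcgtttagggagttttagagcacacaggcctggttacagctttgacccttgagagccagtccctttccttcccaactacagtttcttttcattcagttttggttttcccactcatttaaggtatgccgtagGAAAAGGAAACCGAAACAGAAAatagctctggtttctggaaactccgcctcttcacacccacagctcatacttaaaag
Ifit1, chr19:34640639-34640888, plus strand: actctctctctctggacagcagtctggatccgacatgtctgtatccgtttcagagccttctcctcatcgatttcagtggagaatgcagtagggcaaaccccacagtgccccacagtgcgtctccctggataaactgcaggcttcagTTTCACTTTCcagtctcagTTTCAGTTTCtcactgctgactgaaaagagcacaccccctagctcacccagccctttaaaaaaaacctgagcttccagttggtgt
Ifit3, chr19:34583279-34583528, plus strand: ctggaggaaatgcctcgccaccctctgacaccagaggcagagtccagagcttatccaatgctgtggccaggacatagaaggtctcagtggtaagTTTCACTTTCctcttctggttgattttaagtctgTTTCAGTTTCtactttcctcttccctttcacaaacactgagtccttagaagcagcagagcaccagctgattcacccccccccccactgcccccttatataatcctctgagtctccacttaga
Of the 24 genes with a promoter in the sequence table, 11 held the core in this window (Bst2, Ifi203, Ifit1, Ifit3, Ifit3b, Isg15, Oas1a, Oas3, Rsad2, Stat2 and Trim30a). The windows of Ifi204, Zbp1, Usp18, Mx1, Ifi27l2a, Dhx58, Mx2, Rtp4, Parp14 and Oas2 were not searched. Among all 27025 genes with a promoter, 3.46% held it. TTCNNNGAA, the core bound by STAT dimers, was present in 3 of the 24 (Bst2, Ifit2 and Oas1a), against 8.13% of all genes. The windows of Ifi44, Ifi44l and Ddx58 held no match to the first core, and those of Isg15, Ifit1 and Ifit3 held 3, 2 and 2. Only this exact spacing was searched, so GAAA repeats with another spacing, as in the windows of Ifi44 and Ddx58, were not marked. The lack of a match does not mean that a response element is absent. A match describes letters in this window and is no evidence of binding.

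Totals ran from 16789158 to 18375275 counts per library. MST1 is encoded by Stk4, whose level was 287.1, 295.5, 301.9 and 286.5 CPM (counts per 1000000 of a TMM-scaled library) in knockout replicates 1 to 4, against 327.5, 316.3 and 336.5 CPM in WT replicates 1 to 3. Its log2 fold change of -0.16 (95% interval -0.34 to 0.03) missed the threshold (edgeR adjusted p = 0.226, adjusted over all genes tested). Reads outside a deleted part, and reads from any cells without the deletion, are counted too, so this does not check the deletion. Knockout below means the libraries so labelled. Markers of other cells were abundant, although the labels name sorted Tfh cells. The summed level of 10 T and Tfh cell markers was 187 to 354 CPM in knockout libraries and 555 to 761 CPM in WT libraries, with 9 lower. For 6 B cell markers it was 1204 to 2888 CPM in knockout and 3645 to 4938 CPM in WT libraries, with 1 lower. All 6 had a log2 fold change below 0. The groups did not overlap for any of the 6, against 30.0% of all genes tested without overlap. For 7 neutrophil markers it was 8001 to 12010 CPM in knockout and 13530 to 16770 CPM in WT libraries, with 4 lower and 1 higher. For 7 erythroid markers it was 258 to 641 CPM in knockout and 28.2 to 48.2 CPM in WT libraries, with all 7 higher. Higher and lower here mean called at an edgeR adjusted p under 0.05, as were 8.71% and 6.83% of all genes tested. No marker of these lists was at 0 in any library. In such bulk samples, fewer cells of a type and less RNA per cell cannot be told apart, and the part of these cells in the results below was not tested.

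Few of the interferon-stimulated genes passed the test between the groups, and those that did went in both directions. Of the 34, all of which passed the filter on low counts, 2 rose (Ifi44 and Ifi44l), 1 fell (Ddx58) and 31 did not pass (edgeR quasi-likelihood test, adjusted p under 0.05 over 15795 genes). Over all genes tested, 8.71% were called higher and 6.83% lower. The median log2 fold change of the 34 was -0.21, also with Ifi44l at its lower bound, and -0.002 over all genes tested. A value below 0 was found for 25 of the 34 and for 7941 of the 15795. Knockout and WT libraries did not overlap for 5 of the 34, against 30.0% of all genes tested. These were Ifi44, Ifi44l, Ddx58, Oasl1 and Mx2. In the authors' deposited table, 2 of the 34 were higher and 2 lower (Ddx58 and Oasl1) at an adjusted p under 0.05, where 12.5% of the 26683 rows with a value were below it.

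**Figure D1:**
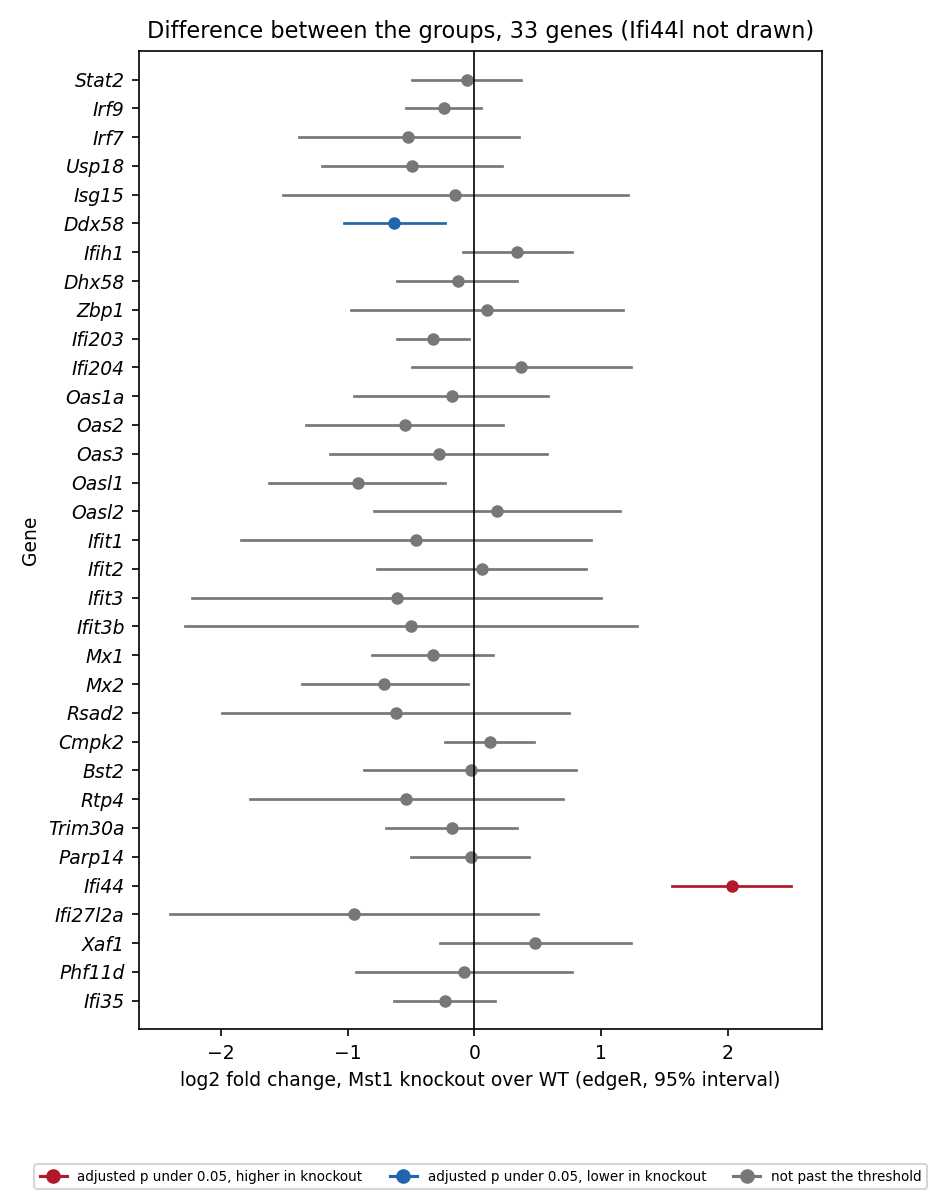
Fitted log2 fold change of knockout over WT libraries (points, horizontal axis) with its 95% interval (lines) for 33 genes, in the order of their roles from top to bottom. Ifi44 stands apart at 2.03 and Ddx58 lies at -0.63. Most other intervals include 0. Ifi44l, with no WT count, is not drawn.

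Ifi44 and Ifi44l lie side by side on the minus strand of chromosome 3 (GRCm38, 151730922 to 151749960 and 151758737 to 151762892). Both are induced by interferon, and their proteins have been linked to limiting virus replication. Ifi44 (ENSMUSG00000028037) stood at 25.7, 32.4, 25.3 and 37.4 CPM in knockout replicates 1 to 4, against 7.81, 8.77 and 5.60 CPM in WT replicates 1 to 3. Every knockout library lay above every WT library, and the lowest knockout value was far above the highest WT value. The mean was 30.2 ± 5.82 CPM in knockout (SD, n = 4) and 7.39 ± 1.62 CPM in WT libraries (n = 3), a log2 fold change of 2.03 (SE 0.21, edgeR adjusted p = 0.000856). It ran from 1.86 to 2.17 when each library was left out in turn, and the call held in all 7 such fits.

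Ifi44l (ENSMUSG00000039146) had 167, 400, 388 and 377 counts in knockout replicates 1 to 4 and 0 counts in each of the 3 WT libraries. As levels, the knockout values were 9.87, 22.3, 21.6 and 21.1 CPM, so replicate 1 was the low one. With the WT libraries set to a floor of 3 counts each (0.176 CPM on average, counting error only), the level was at least 106.5-fold higher in the knockout libraries (mean 18.7 ± 5.91 CPM, SD, n = 4, edgeR adjusted p = 0.000526). The call held when each library was left out. Per length, its level in knockout libraries was 13.5 ± 4.25 FPKM, above the 4.88 ± 0.92 FPKM of Ifi44, while in WT libraries Ifi44l was at 0 and Ifi44 at 1.19 ± 0.26 FPKM. No 50-base word of the annotated Ifi44 or Ifi44l transcripts occurred in a transcript of another gene, which includes each other.

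The genes around this pair mostly did not pass, and neither did most genes tested, of which 15.5% were called in either direction. Within 1 Mb on either side, 11 other genes were tested and 1 was called. It was Adgrl4, an adhesion receptor gene of endothelial cells 186 kb away, at 6.62 ± 1.64 CPM in knockout (n = 4) and 2.80 ± 1.08 CPM in WT libraries (n = 3), with a log2 fold change of 1.24 (edgeR adjusted p = 0.0287). This call was lost without knockout replicate 2 (adjusted p = 0.0692) and without WT replicate 1 or 2 (0.0913 and 0.106). These neighbours were looked at after the values of the pair were seen.

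**Figure D2:**
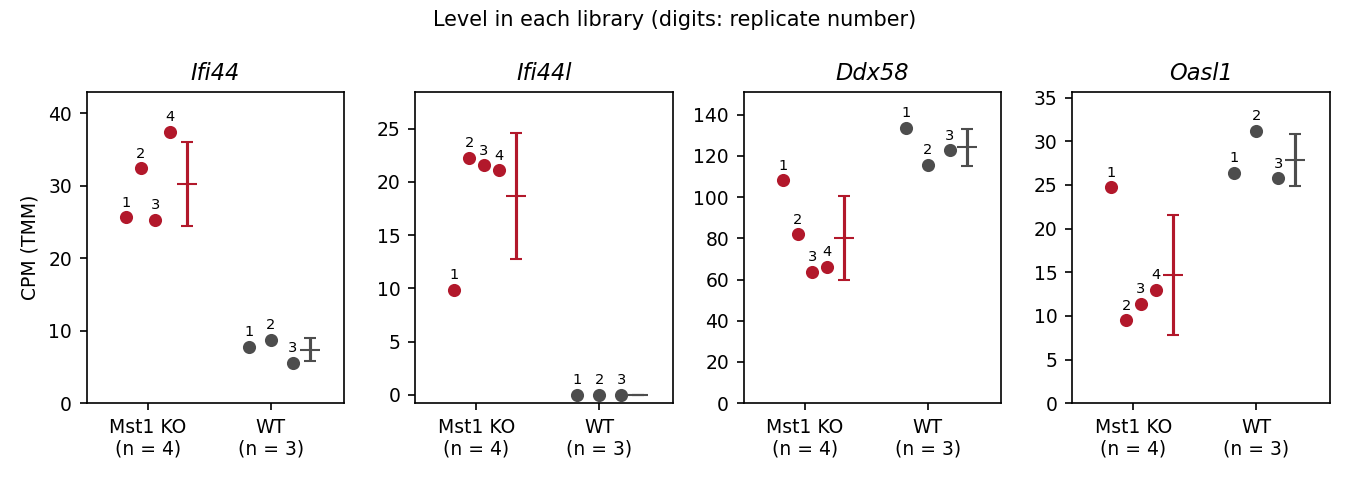
Level in CPM (vertical axis, TMM-scaled) of Ifi44, Ifi44l, Ddx58 and Oasl1 in each knockout library (left in each panel, n = 4) and WT library (right, n = 3), labelled by replicate number, with mean ± SD beside the points. The groups do not overlap in any panel, and for Ddx58 and Oasl1 knockout replicate 1 lies just below the WT libraries.

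Among the nucleic acid sensors, the gene that fell was Ddx58, which encodes RIG-I, a cytosolic sensor of viral RNA (ENSMUSG00000040296, chromosome 4, 40203773 to 40239828, minus strand). It stood at 108, 82.0, 63.9 and 66.3 CPM in knockout replicates 1 to 4, against 134, 116 and 123 CPM in WT replicates 1 to 3. Knockout replicate 1 lay just below the lowest WT library, and the other knockout libraries lay well below. The mean was 80.1 ± 20.4 CPM in knockout (n = 4) and 124 ± 8.95 CPM in WT libraries (n = 3), and the log2 fold change was -0.63 (SE 0.18, 95% interval -1.03 to -0.23, edgeR adjusted p = 0.0418). The call held without knockout replicate 1 (adjusted p = 0.00564) and was lost without any other 1 library. The adjusted p was then 0.0916, 0.0685 and 0.0729 without knockout replicates 2, 3 and 4, and 0.129, 0.0966 and 0.11 without WT replicates 1, 2 and 3.

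The other sensors did not pass. Ifih1, which encodes the related RNA sensor MDA5, averaged 54.3 ± 10.1 CPM in knockout and 42.9 ± 10.5 CPM in WT libraries, with a log2 fold change of 0.34 (95% interval -0.09 to 0.77). Dhx58, which encodes LGP2, a modulator of both sensors, had -0.13 (-0.61 to 0.34). Zbp1, a sensor of Z-form nucleic acid, stood at 206, 170, 80.1 and 181 CPM in knockout replicates 1 to 4, against 248, 108 and 89.4 CPM in WT replicates 1 to 3. Its highest library was WT and its lowest was knockout, so the groups overlapped (log2 fold change 0.10, -0.97 to 1.17). Ifi203, of the family of nuclear and cytosolic proteins that includes DNA sensors, stood at 291, 265, 241 and 256 CPM in knockout libraries, against 393, 290 and 308 CPM in WT libraries. Here 3 knockout libraries lay below all WT libraries and knockout replicate 1 just above the lowest (log2 fold change -0.33, edgeR adjusted p = 0.109). Its relative Ifi204 had 0.37 (-0.49 to 1.24). Of 50-base words in their annotated transcripts, 12.2% of Ifi203 and 20% of Ifi204 also occurred in other genes, so their counts are less certain.

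None of the 5 genes for signal transduction and feedback passed, and all 5 fold changes were below 0, with a median of -0.24. Stat2, a subunit of the interferon-activated complex, stood at 209, 197, 138 and 196 CPM in knockout replicates 1 to 4, against 250, 164 and 165 CPM in WT replicates 1 to 3. The groups overlapped, with knockout replicate 3 lowest (log2 fold change -0.06, -0.49 to 0.37). Its partner Irf9 averaged 141.5 ± 22.4 CPM in knockout and 168 ± 10.5 CPM in WT libraries (-0.24, -0.54 to 0.05). Irf7, the factor that amplifies interferon production and is itself induced, stood at 149, 89.5, 47.6 and 88.3 CPM in knockout libraries, against 175, 129 and 98.4 CPM in WT libraries. Knockout replicate 1 lay within the WT values and the other 3 below them (-0.52, -1.38 to 0.35). Isg15 encodes a ubiquitin-like protein that is attached to other proteins, and Usp18 the protease that removes it and restrains the receptor. Isg15 stood at 39.73, 18.42, 6.40 and 14.3 CPM in knockout libraries, against 28.61, 22.99 and 14.08 CPM in WT libraries. Both the highest and the lowest of the 7 libraries were knockout (-0.15, -1.51 to 1.21). Usp18 averaged 20.7 ± 9.54 CPM in knockout and 29.1 ± 1.596 CPM in WT libraries (-0.49, -1.20 to 0.22). It passed without knockout replicate 1, its highest knockout library, at -0.84 (edgeR adjusted p = 0.0234).

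The oligoadenylate synthetases make the messenger that activates RNase L on viral double-stranded RNA, and the genes of this family lie on chromosome 5. None of the 5 passed edgeR's test. Oas1a stood at 86.4, 58.9, 28.1 and 60.4 CPM in knockout replicates 1 to 4, against 76.3, 62.3 and 60.4 CPM in WT replicates 1 to 3. Oas2 stood at 128, 96.3, 42.6 and 95.6 CPM in knockout libraries, against 160, 115 and 123 CPM in WT libraries. For both genes knockout replicate 1 lay among or above the WT libraries and knockout replicate 3 far below them. Oas3 had a log2 fold change of -0.28 (-1.14 to 0.57) and Oasl2 one of 0.18 (-0.79 to 1.15). Oasl1, which in the mouse restrains translation of Irf7, stood at 24.8, 9.52, 11.4 and 13.0 CPM in knockout libraries, against 26.4, 31.2 and 25.8 CPM in WT libraries. The groups did not overlap, and knockout replicate 1 was close to the WT range. The log2 fold change was -0.92 (-1.62 to -0.23, edgeR adjusted p = 0.0742). Without knockout replicate 1, its highest knockout library, it was -1.3 and passed (edgeR adjusted p = 0.00231). Of the 50-base words of Oas1a, 57.6% also occurred in Oas1g, so reads could be split between them.

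The Ifit genes, whose products bind viral RNA and block its translation, form a cluster on chromosome 19, and none of the 4 passed. Ifit3 stood at 56.2, 16.5, 10.1 and 14.5 CPM in knockout replicates 1 to 4, against 57.7, 32.7 and 21.3 CPM in WT replicates 1 to 3. Knockout replicate 1 was near the highest WT library, and the other 3 knockout libraries lay below all WT libraries. The log2 fold change was -0.61 (-2.23 to 1.00). Without knockout replicate 1, its highest knockout library, it was -1.44 and passed (edgeR adjusted p = 0.0474). Removing the highest library lowers the knockout mean by construction. Its near-copy Ifit3b had 17.9, 4.23, 2.39 and 2.91 CPM in knockout libraries, against 14.0, 9.70 and 5.32 CPM in WT libraries. It too passed without knockout replicate 1, its highest knockout library, at -1.6 (edgeR adjusted p = 0.0299). Of their 50-base words, 51.2% of Ifit3 and 44.5% of Ifit3b occurred in the other gene, so the 2 are not independent readings. Ifit2 stood at 65.4, 41.7, 27.8 and 43.3 CPM in knockout libraries, against 64.7, 34.3 and 29.5 CPM in WT libraries, with both groups over the same range (0.06, -0.77 to 0.88). Ifit1 had -0.46 (-1.84 to 0.92).

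Of 8 other antiviral effector genes none passed. Bst2 encodes tetherin, which holds budding virus at the cell surface and is also a marker of plasmacytoid dendritic cells in mice. It stood at 100.2, 56.7, 34.4 and 66.0 CPM in knockout replicates 1 to 4, against 82.4, 68.9 and 46.2 CPM in WT replicates 1 to 3. Trim30a, a tripartite motif gene, stood at 262, 188, 119 and 175 CPM in knockout libraries, against 227, 211 and 193 CPM in WT libraries. In both genes the knockout libraries spanned a wider range than the WT libraries and enclosed it. Rsad2 and Cmpk2 are neighbours on chromosome 12 whose products viperin and a nucleotide kinase act together to make a chain-terminating nucleotide. Rsad2 averaged 14.8 ± 10.9 CPM in knockout and 22.8 ± 6.04 CPM in WT libraries (-0.62, -1.99 to 0.75). Cmpk2 averaged 63.4 ± 9.26 CPM in knockout and 58.4 ± 10.6 CPM in WT libraries (0.12, -0.23 to 0.47). Mx1 and Mx2, dynamin-like antiviral GTPase genes on chromosome 16 of which the files annotate Mx2 as a polymorphic pseudogene, had log2 fold changes of -0.33 (-0.81 to 0.15) and -0.71 (-1.36 to -0.05). Mx2 averaged 7.44 ± 2.88 CPM in knockout and 12.1 ± 0.90 CPM in WT libraries without overlap, but did not pass edgeR's test (adjusted p = 0.129). It passed without knockout replicate 4, its highest knockout library, at -0.92 (edgeR adjusted p = 0.0457). Rtp4 had -0.54 (-1.77 to 0.70) and Parp14, an ADP-ribosyltransferase gene, -0.03 (-0.50 to 0.43). Rtp4 and Parp14, like Irf9 above, overlap another gene on the same strand, so their counts are less certain.

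Beside Ifi44 and Ifi44l, 4 further induced genes were measured and none passed. Ifi27l2a, which encodes a small hydrophobic protein, had the highest level per length of the 34, at 209 ± 134 FPKM in knockout and 403 ± 162 FPKM in WT libraries. In CPM it stood at 169, 62.0, 31.4 and 128 in knockout replicates 1 to 4, against 269, 182 and 116 in WT replicates 1 to 3. Knockout replicates 2 and 3 lay below all WT libraries and the other 2 within their range (log2 fold change -0.95, -2.40 to 0.50). Ifi35 stood at 53.6, 39.6, 30.1 and 39.9 CPM in knockout libraries, against 51.0, 50.05 and 42.8 CPM in WT libraries (-0.23, -0.63 to 0.16). Xaf1, an interferon-induced promoter of apoptosis, had 0.48 (-0.27 to 1.24), and Phf11d -0.08 (-0.93 to 0.77). Xaf1 averaged 67.7 ± 28.1 CPM in knockout and 48.5 ± 7.82 CPM in WT libraries.

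The larger pattern lay between libraries of the same group. Knockout replicate 1 was the highest of the 4 knockout libraries for 31 of the 34 genes, where it was highest for 25.2% of all genes tested. Knockout replicate 3 was the lowest for 31 of the 34, against 27.9% of all genes tested. Both held at once for 29 of the 34 (85.3%), against 9.49% of all genes tested. The exceptions were Ifi44 and Mx2, highest in knockout replicate 4, Oasl1 and Xaf1, lowest in knockout replicate 2, and Ifi44l, highest in knockout replicate 2 and lowest in knockout replicate 1. Of the WT libraries, replicate 1 was highest for 30 of the 34 (34.6% of all genes tested) and replicate 3 lowest for 24 (33.3%). This order was noticed in the values and is a description of these libraries, since each stands alone.

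The ratio of the highest to the lowest knockout library had a median of 2.59 over the 34 genes (range 1.21 to 7.46), against 1.44 over the 15720 genes tested with a count in every knockout library. Between the WT libraries the medians were 1.56 over 33 of the genes and 1.29 over all. Ifit3b (7.46), Isg15 (6.21) and Ifit1 (6.002) had the largest knockout ratios, and Ifi203 (1.21) the smallest. For Ifi44 the ratio was 1.48, and knockout replicates 1 and 3 differed by a ratio of 1.01. As a median over 32 genes without Ifi44 and Ifi44l, the log2 deviation from each gene's mean was 0.49, -0.07, -0.75 and -0.09 in knockout replicates 1 to 4, against 0.48, 0.15 and -0.07 in WT replicates 1 to 3. Knockout replicate 1 was thus level with WT replicate 1, while knockout replicate 3 lay below all other libraries.

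**Figure D3:**
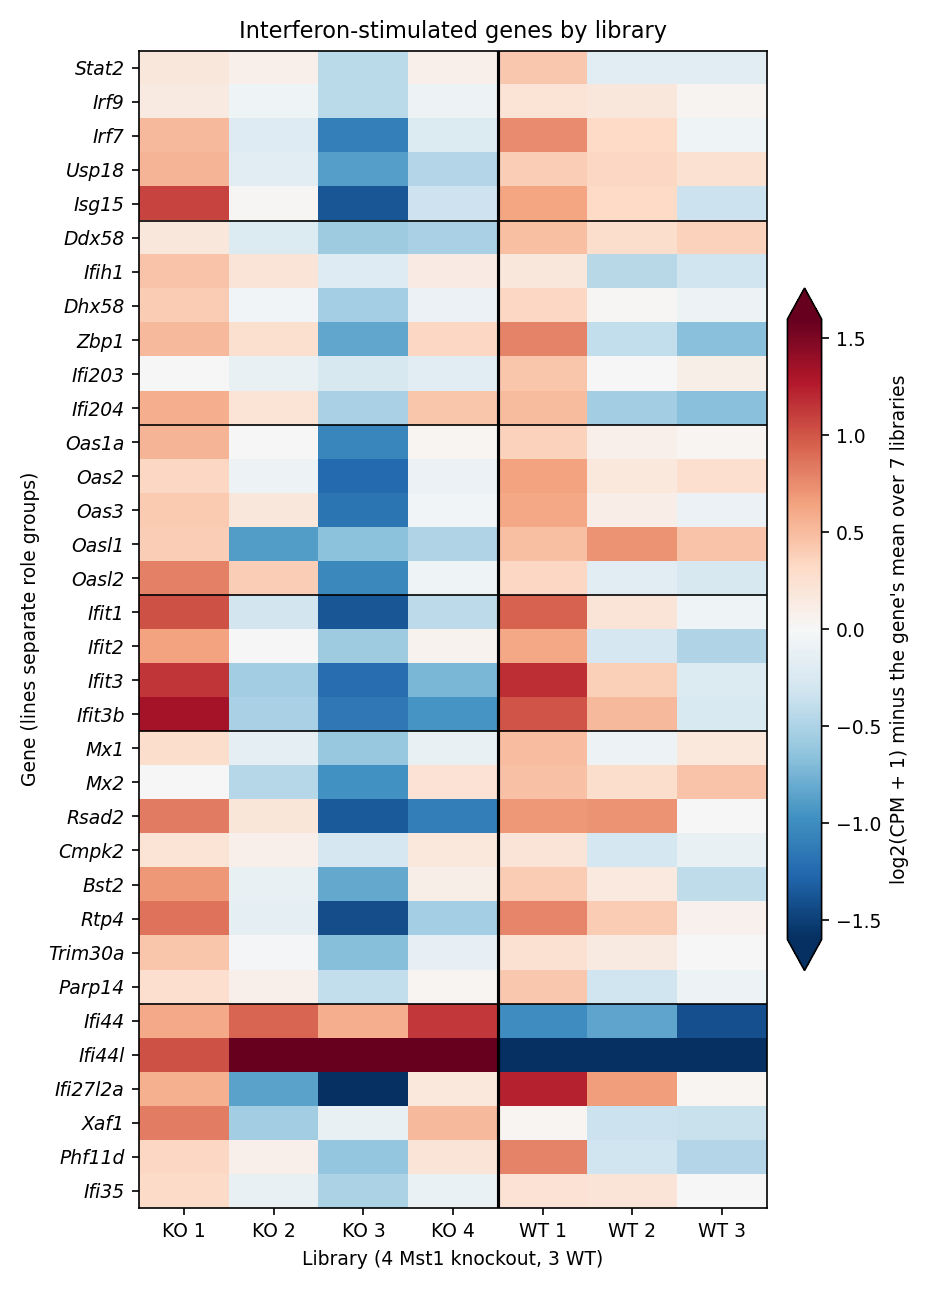
Log2(CPM + 1) of each of the 34 genes (vertical axis, lines separate role groups) minus its mean over the 7 libraries, in the 4 knockout libraries (left) and the 3 WT libraries (right). Colours saturate at the ends of the scale. Knockout replicate 3 is blue for most genes and knockout replicate 1 and WT replicate 1 are mostly red, whereas Ifi44 and Ifi44l split by group.

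Total counts of the libraries at the ends were close, at 17207820 in knockout replicate 1 and 17051653 in knockout replicate 3. Several marker lists moved with the order in part, and others did not. Over all genes tested, knockout replicate 1 was highest of its group for 25.2% and knockout replicate 3 lowest for 27.9%. Markers of CD8 T and natural killer cells were highest among the knockout libraries in replicate 1 for 5 of 6, with sums of 147, 90.65, 91.16 and 78.4 CPM in knockout replicates 1 to 4, against 221, 140 and 109 CPM in WT replicates 1 to 3. T and Tfh cell markers were highest in knockout replicate 1 for 7 of 10, with sums of 354, 258, 328 and 187 CPM in knockout libraries, against 761, 716 and 555 CPM in WT libraries. The same held for 4 of 5 red pulp macrophage markers and 4 of 6 conventional dendritic cell markers. For monocyte markers it was only 2 of 6, beside the 25.2% of all genes tested. Knockout replicate 3 was lowest for 1 of the 6 CD8 T and natural killer cell markers, 1 of the 10 T and Tfh cell markers, none of the red pulp macrophage markers and 3 of the 6 conventional dendritic cell markers. The monocyte markers had a summed level of 3473, 2921, 2307 and 3518 CPM in knockout replicates 1 to 4, against 2195, 1368 and 1395 CPM in WT replicates 1 to 3. In 4 of the 6 monocyte markers (Ly6c2, Ccr2, Fcgr1 and Ms4a4c) knockout replicate 3 was lowest. All 5 plasma cell markers were lowest in knockout replicate 3, with sums of 1541, 1477, 1022 and 3091 CPM in knockout replicates 1 to 4, against 2591, 1446 and 1503 CPM in WT replicates 1 to 3. Plasmacytoid dendritic cell markers did not follow the order among the knockout libraries but did among the WT libraries, with sums of 20.52, 19.98, 22.87 and 22.97 CPM in knockout libraries, against 54.7, 45.9 and 43.5 CPM in WT libraries. Elsewhere, knockout replicate 1 was highest for 2 of 6 B cell markers and 1 of 5 plasma cell markers. It was highest for none of the 7 neutrophil and 7 erythroid markers. Knockout replicate 3 was lowest for 3 of the 7 neutrophil markers and for no erythroid or B cell marker. The part of any of these cells in the order was not tested. Ms4a4c is also interferon-induced and stands in the list of further interferon-stimulated genes.

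The rest of the interferon system was read from 6 lists of 125 genes, of which 124 were in the table and 102 were tested. Of these, 10 rose and 11 fell, where 8.71% of all genes tested were called higher and 6.83% lower. Transcripts of the ligands were nearly absent. Of 21 interferon genes, 18 had no count in any library, among them Ifnb1, which allows at most 3 counts per library, by counting error only. Ifnz had 1 count in all, and Ifnk 20 counts in knockout and 5 in WT libraries. Ifng, the ligand made by T and natural killer cells, averaged 1.35 ± 0.76 CPM in knockout (n = 4) and 1.24 ± 0.62 CPM in WT libraries (n = 3), with a log2 fold change of 0.13 (95% interval -0.98 to 1.23).

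None of the 6 receptor genes passed edgeR's test. Ifnar1 averaged 164 ± 33.3 CPM in knockout and 126 ± 8.598 CPM in WT libraries (log2 fold change 0.38, edgeR adjusted p = 0.131). Ifnar2 averaged 96.3 ± 7.53 CPM in knockout and 72.1 ± 14.5 CPM in WT libraries (0.42, adjusted p = 0.0676). Ifngr1 and Ifngr2, the receptor for interferon gamma, had 0.24 and 0.04. Ifnlr1, for the lambda interferons, had -0.62 (adjusted p = 0.0544), and its shared partner Il10rb -0.21.

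Of 11 genes for signalling kinases, STAT and IRF factors, 1 rose and 2 fell, against 8.71% and 6.83% of all genes tested. The receptor kinase gene Tyk2 averaged 219 ± 18.2 CPM in knockout and 164 ± 16.2 CPM in WT libraries (log2 fold change 0.42, edgeR adjusted p = 0.0283), and this call was lost without knockout replicate 2 or WT replicate 2 or 3 (adjusted p up to 0.104). Its partner kinase gene Jak1 averaged 361 ± 24.0 CPM in knockout and 472 ± 24.95 CPM in WT libraries (-0.38, adjusted p = 0.0286), a call lost without knockout replicate 2 or 4 or any 1 WT library (up to 0.098). Irf4, a factor of activated lymphocytes, averaged 79.8 ± 8.08 CPM in knockout and 127.5 ± 10.1 CPM in WT libraries (-0.68, adjusted p = 0.00432), and held when each library was left out. Irf1 had 0.69 (adjusted p = 0.118). None of the 6 restraint genes passed, among them Socs1 at 0.88 (adjusted p = 0.16).

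Of 14 sensing adaptors and kinases, 2 rose and 1 fell, against 8.71% and 6.83% of all genes tested. Tlr3, the endosomal receptor for double-stranded RNA, averaged 36.9 ± 8.21 CPM in knockout and 18.8 ± 0.67 CPM in WT libraries (log2 fold change 0.97, edgeR adjusted p = 0.008), and held when each library was left out. Tlr9, the receptor for unmethylated DNA that B cells express, averaged 67.0 ± 13.9 CPM in knockout and 106 ± 4.42 CPM in WT libraries (-0.66, adjusted p = 0.0264). Its call was lost without knockout replicate 2 or any 1 WT library (up to 0.0993). Ikbke, a kinase of the pathway, had 0.41 (adjusted p = 0.0496), lost without any library other than knockout replicate 1 (up to 0.168). It was lost also with each of the 3 other scalings (0.0527, 0.0618 and 0.0519), with a minimum mean of 1 CPM (0.0537) and without the robust option (0.052).

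Of 64 further interferon-stimulated genes tested, 7 rose and 8 fell, against 8.71% and 6.83% of all genes tested. The median log2 fold change of the 64 was -0.04. Knockout replicate 1 was highest among knockout libraries for 45 of the 64 and knockout replicate 3 lowest for 45, and both held for 27 (42.2%). Among all genes tested, the shares were 25.2%, 27.9% and 9.49%. Lgals9, which encodes galectin 9, averaged 166 ± 20.3 CPM in knockout and 98.3 ± 14.1 CPM in WT libraries (0.75, edgeR adjusted p = 0.00741). Sp100, a gene of nuclear bodies, averaged 287 ± 27.7 CPM in knockout and 430 ± 44.3 CPM in WT libraries (-0.59, adjusted p = 0.011). Both calls held when each library was left out. Cxcl10, a chemokine that draws T cells, stood at 23.7, 22.9, 20.2 and 9.47 CPM in knockout replicates 1 to 4, against 6.89, 5.28 and 6.62 CPM in WT replicates 1 to 3 (1.6, adjusted p = 0.0116). All knockout libraries lay above all WT libraries, and the call was lost without WT replicate 2 (adjusted p = 0.0613). Ifi30, a lysosomal reductase gene of antigen-presenting cells, had 0.73 (adjusted p = 0.0124), lost without WT replicate 3 (0.0507).

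Of 9 genes of the Ifi203 and Ifi204 family on chromosome 1 that stand in these lists, 4 fell and 5 did not pass, where 6.83% of all genes tested fell. The family was singled out after its values were seen. Ifi204 above had 0.37, and Ifi205, Ifi207 and Ifi211 had log2 fold changes of 0.74, 0.10 and 0.34. Ifi213 averaged 47.3 ± 20.4 CPM in knockout and 149 ± 19.2 CPM in WT libraries (log2 fold change -1.66, edgeR adjusted p = 0.0148), and was lost without WT replicate 1 (0.0546) and with no filter on low counts (0.0575). Ifi208 had -1.59, Ifi209 -0.61 and Mndal -0.43, each lost without any 1 WT library, with adjusted p up to 0.0702, 0.135 and 0.115. Ifi208 was also lost with no filter (0.0795). Ifi209 was also lost without knockout replicate 2 or 3, and Mndal without knockout replicate 2 or 4. Mndal overlaps Ifi203 on the same strand, so their reads cannot be fully told apart. Cxcl9, a chemokine gene induced mainly by interferon gamma and also named after its values were seen, averaged 53.4 ± 18.1 CPM in knockout and 11.2 ± 7.24 CPM in WT libraries (2.26, adjusted p = 0.0224). It was lost without knockout replicate 2 or WT replicate 2 or 3 (up to 0.0901) and with no filter (0.0772). Of 6 monocyte markers 2 were called higher and 1 lower, and the same held for 6 conventional dendritic cell markers. Among all genes tested, 8.71% were called higher and 6.83% lower. Both marker lists thus went in both directions, and the part of these cells in these results was not tested.

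**Figure D4:**
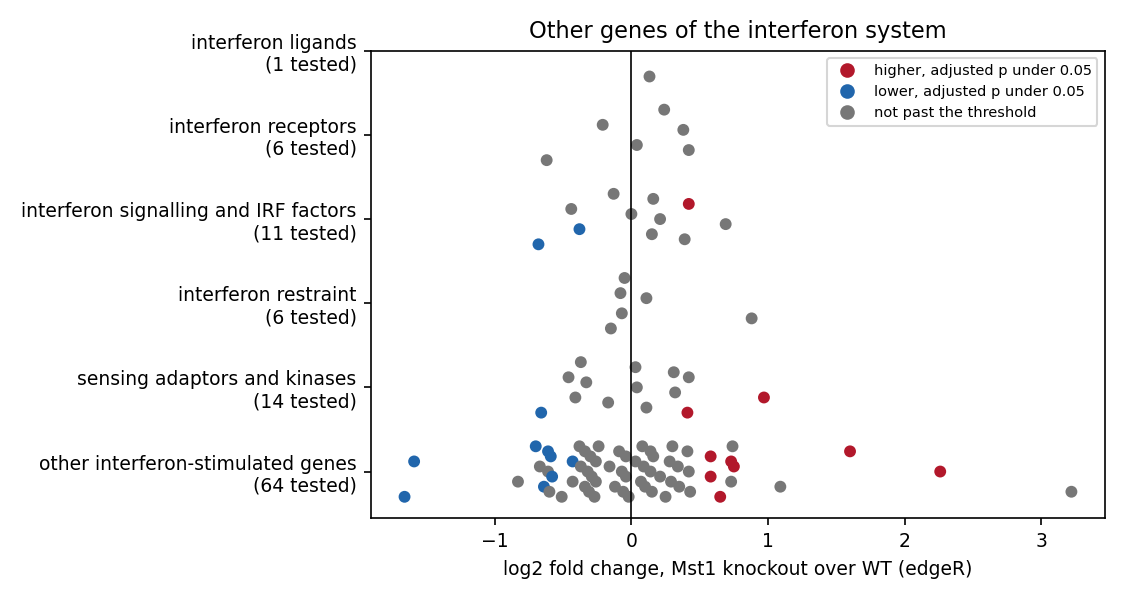
Fitted log2 fold change of knockout over WT libraries (horizontal axis) for the 102 tested genes of 6 interferon lists (rows), 1 point a gene, with vertical scatter for legibility. Red points rose and blue points fell at an adjusted p under 0.05. No receptor or restraint gene is coloured, and Cxcl9 and Cxcl10 are the red points farthest right.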

How the data were processed

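RNA sequencing of 7 libraries (4 Mst1 knockout, 3 WT) was analysed. Per the file headers, the deposited table gives a whole-number read count and an FPKM value per gene and library. It also gives the log2 fold change of the authors' comparison with its p-value and adjusted p-value, per the file headers. Per the submitters' processing notes the genome was GRCm38 (mm10). Aligner, counter, strand setting and the authors' test were not given in the sources used. The sides of the comparison carry codes in the headers. Its deposited log2 fold changes had the sign of knockout over WT in 15779 of the 15795 genes tested here, and that direction was used.

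The deposited counts were fitted with edgeR 4.0.16 in R 4.3.3 (filterByExpr, TMM, robust quasi-likelihood F-test, genotype as the only term) over 15795 genes. P-values were adjusted by Benjamini-Hochberg and a gene was called under 0.05. CPM values are given as mean ± SD, and FPKM values, used for levels between genes, are as deposited. Fold changes are knockout over WT on the log2 scale, with SE and 95% intervals. P-values set the difference between the groups against the spread between these samples, which may be technical. Counts of 0 were given a floor of 3 per library, which covers counting error only. The fits were tested on simulated data.

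The genes, lists and comparisons were chosen with earlier results of these data known. The rule named each gene called or without counts in a group, the 2 of each role group with the highest FPKM, and up to 4 called genes of each further list with the smallest p. Isg15, Oasl1, Ifit3b, Mx2 and the genes marked as such were described in more detail after their values were seen. Alternatives were DESeq2 1.42.0, limma-voom (limma 3.58.1) with quality weights, 3 other scalings, 2 other filters, edgeR without its robust option, a replicate block, and leaving out single libraries. No pair of libraries of the same group agreed within sampling noise.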

Additional observations from a re-analysis of the deposited data

Results flagged for a closer look

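A library apart from the other knockout libraries was looked for in the 34 genes and the 21 called genes of the further lists, by the gap to the nearest library as a share of the range over the 4 knockout libraries (Dixon's 95% critical value). Chance gives about 1 in 20, and 4 of the 55 genes passed. Ifit3 (0.861) and Ifit3b (0.881), which share sequence, were set apart by a high knockout replicate 1, at 56.2 and 17.9 CPM. Ifi44l (0.908) was set apart by a low knockout replicate 1, at 9.87 CPM. Tlr9 (0.881) was set apart by a low knockout replicate 4, at 46.2 CPM, where B cell markers also summed lowest, at 1204 CPM. The part of B cells in that value was not tested.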

How the results depend on the processing

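The 2 calls of higher genes, Ifi44 and Ifi44l, held under every alternative run. Lower genes among the 34 numbered 1 in the main analysis, 2 with DESeq2, 3 with limma-voom, 3 with the replicate block (Ddx58, Mx2 and Ifi27l2a) and from 0 to 5 when each library was left out. The replicate block moved no other count by over 1.5 times, and under it Ikbke (adjusted p = 0.107), Isg20 (0.0523), Jak1 (0.0719) and Tyk2 (0.0725) did not pass. No label says whether replicate numbers pair the samples. Over all genes tested, same-numbered libraries had correlations of deviations of -0.0494, 0.0095 and 0.206, which cannot decide this. Among the 34 genes, replicate 1 was highest of its group for 31 in knockout and 30 in WT libraries. Replicate 3 was lowest for 31 and 24. Whether a pairing or a batch was shared was not tested. Over all genes, limma-voom called 1859 lower, and leaving out a library gave 639 to 1415 higher and 411 to 1138 lower. In the further lists, limma-voom called 16 higher, DESeq2 called 18 lower, and leaving out a library gave 3 to 14 higher and 3 to 14 lower. No scaling changed the direction of a named gene. With the total library size Helz2 did not pass (adjusted p = 0.0502). Fold changes that did not pass changed sign as follows. With limma-voom, Parp14 was at 0.00 and Phf11d at 0.03. When each library was left out, fold changes on the log2 scale lay between the following limits, which were -0.33 to 0.18 for Bst2, -0.32 to 0.01 for Dhx58, -0.19 to 0.48 for Ifit2, -0.75 to 0.14 for Isg15, -0.44 to 0.05 for Oas1a, -0.12 to 0.43 for Oasl2, -0.19 to 0.21 for Parp14, -0.32 to 0.48 for Phf11d, -0.17 to 0.17 for Stat2 and -0.16 to 0.69 for Zbp1. The median of the 34 was -0.03 without knockout replicate 3, -0.08 without WT replicate 1 and -0.39 without knockout replicate 1. The causes of these shifts were not tested, and each of these fits also has fewer libraries. Usp18, Oasl1, Ifit3, Ifit3b and Mx2 gained a call on removal of the knockout library in which each was highest. Such a removal lowers the knockout mean by construction, so these calls are not a separate test. Of the 21 called genes of the further lists, Irf4, Lgals9, Sp100 and Tlr3 held in all 7 removals. Intervals spanning more than 2 log2 units, as for Ifit1, Ifit3 and Isg15, mean that sizeable differences in either direction were not detectable with 4 and 3 libraries.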
